A study of Arabidopsis thaliana with 12 samples.

Results

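Cycloheximide stops the ribosome from extending new proteins, and it was used here to ask which transcripts change in shoot apical meristems (SAMs) when protein synthesis is blocked while WUSCHEL (WUS) is active. The comparison was made between the 3 arrays of SAMs treated with dexamethasone and cycloheximide together (Dex+Cyc) and the 3 arrays of SAMs treated with dexamethasone alone (Dex), 6 of the 12 arrays in the series. The other 6 arrays were 3 of mock-treated SAMs (Mock) and 3 of SAMs treated with cycloheximide alone (Cyc). They allowed the effect of Cyc to be measured without Dex, which activates the WUS of the transgene described below. The plants' own *WUS* gene was present in all groups. All groups carried the transgene *35S::WUS-GR* in an *ap1-1;cal1-1* double mutant, and were about 28 days of age when treated for 4 h. Dex was given at 10 μM in the Dex and Dex+Cyc groups, and Cyc at 10 μM in the Cyc and Dex+Cyc groups. Mutation of *APETALA1* and *CAULIFLOWER* keeps the apex making meristems in place of flowers. The *35S* promoter is active in nearly all cells, so the fusion of WUS to the hormone-binding domain of the rat glucocorticoid receptor (WUS-GR) is present far outside the cells that normally make WUS, and Dex releases it into the nucleus. SAMs of 30 to 35 plants were pooled for each treatment. The 3 samples of a group are numbered in the labels with no word on whether separate plants gave them, and the p-values below measure the spread among those samples only, part or all of which may be technical. The study's design text describes the Cyc and Dex+Cyc treatments as experiments made apart from the Dex and Mock treatments, so an effect of Cyc and a difference between experiments cannot be told apart in Dex+Cyc versus Dex or in Cyc versus Mock.

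WUS is a homeodomain transcription factor that is made in the organizing centre of the SAM and keeps the stem cells above it from differentiating. In plant tissue, cycloheximide lets many short-lived transcripts accumulate, among them those of early auxin genes, wound genes and pathogen response genes, because the labile proteins that hold back their transcription or promote their decay are no longer replaced. Transcripts that depend on a protein made during the treatment can fall in the same tissue. For a transcription factor fused to GR, the Dex+Cyc samples show which changes do not need a newly made protein, and Dex+Cyc versus Dex shows how far the background on which these changes are read differs between both sets of samples.

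The values were MAS5 signals, an intensity per probe set of the ATH1 array on a linear scale, with every array scaled by the authors to a trimmed mean of 500. Of 22810 probe sets 64 were controls, and the others represented 22595 loci after 1 probe set was kept for each locus. The 14506 loci with a mean signal of at least 100 in the Dex or the Dex+Cyc group were tested, and the 8089 loci under this floor in both groups were left out. The signals were taken as log2 and fitted with limma over all 12 arrays. A locus was called at an adjusted p under 0.01 (Benjamini-Hochberg over all 14506 loci) with a change of at least 2-fold. Array medians lay between 212 and 236, the log2 signals of 2 arrays of a group correlated with r of 0.937 to 0.949 over the probe sets, and identical values were not found in any 2 arrays. The median SD of the log2 signal within the Dex and Dex+Cyc groups was 0.281 for the dimmest of 5 equal classes of loci and 0.125 for the brightest class. Of the markers of other cell types, 5 were measured. *PI* and *SEP1* (floral organ identity) had mean signals of 711 and 806 in Dex and of 412 and 637 in Dex+Cyc and were not called. Of the photosynthesis markers *RCA* (2766 and 2024) was not called and *PSBO2* (782 and 330.1) fell, and the phloem marker AT5G57130 (289 and 384) was not called. The 3 pollen and tapetum markers on the array, *SPCH* and *FMA* of stomata and *IRX3* of xylem were under 100 in both groups. In bulk samples such as these, fewer cells of a type and less RNA per cell cannot be told apart, and the part of such markers in the results was not tested. The array's probe set for *WUS* was not identified in the annotation used here, and the transgene was not analysed. *CLV3*, the stem cell gene that WUS activates, had mean signals of 85.9 in Mock and 912 in Dex.

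Both kinds of control probe set bear on the scaling of the arrays. The 24 probe sets for the *Bacillus* poly-A transcripts were all lower in Dex+Cyc than in Dex, by 0.42 to 0.95 and on average by 0.65 on the log2 scale, with array means of 278 to 373 in Dex and 198 to 241 in Dex+Cyc. The 18 probe sets for the hybridization controls differed on average by -0.10, and their array means overlapped (945 to 1231 in Dex, 709 to 1216 in Dex+Cyc). How and when the controls were added is not given in the sources used here. The median log2 fold change of all tested loci was -0.24 with the deposited scaling, 0.41 with each array scaled to the poly-A controls and -0.14 with each array scaled to the hybridization controls. The counts below use the deposited scaling, and gene lists are set beside the median of -0.24 so that they can be read relative to the bulk of loci. The annotation used here gave no gene name for 8185 probe sets. Each list therefore holds only the members that could be identified, and its counts do not describe a whole family.

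Between Dex+Cyc and Dex, both with active WUS-GR, 3162 of the 14506 loci (21.8%) were called. Of these, 1846 (12.7% of the loci tested) were higher in Dex+Cyc than in Dex and 1316 (9.07%) were lower. With the poly-A scaling the counts were 3431 higher and 116 lower, with the hybridization control scaling 1803 and 566, so the number of lower loci rests on the scaling. The sizes of the changes are given over the loci above the floor in both groups, 1071 higher and 1116 lower, since a change from a signal near background has no firm size. Their median log2 fold change was 1.87 among the higher loci and -1.19 among the lower ones. A change of at least 4-fold was reached by 494 higher and 25 lower loci, at least 8-fold by 239 and 0, and at least 16-fold by 109 and 0. When a change above 2-fold was itself tested (limma's treat), 1140 loci passed as higher and 72 as lower. The plot of mean signals shows these loci as a fan above the diagonal and a narrow band below it.

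**Figure D1:**
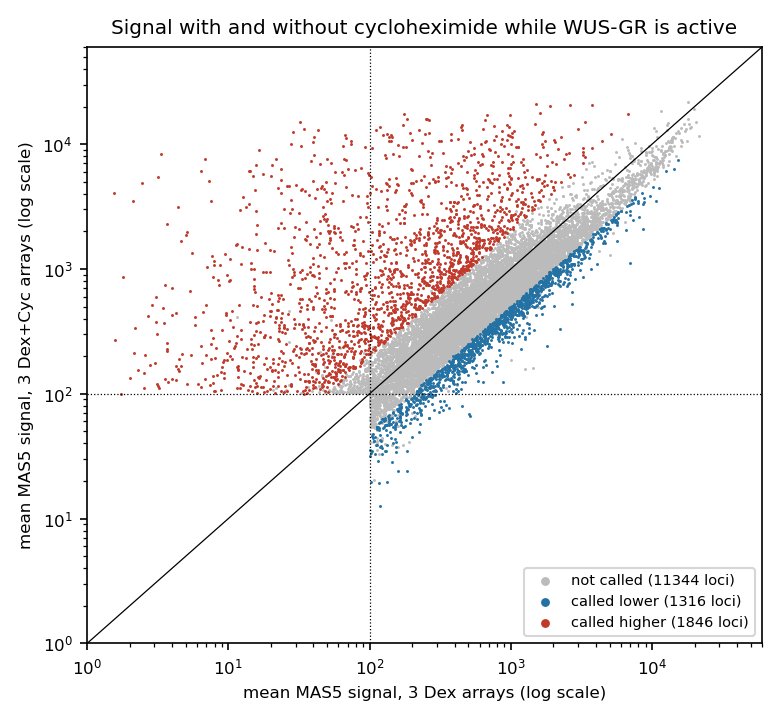
Mean MAS5 signal of each tested locus in the 3 Dex arrays (x axis) and the 3 Dex+Cyc arrays (y axis), both on log scales, with the 1846 called higher loci in red, the 1316 called lower loci in blue and the rest in grey. The solid line marks equal signals and the dotted lines the floor of 100; higher loci reach far from the line at low Dex signal, lower loci stay close to it, and with scaling to the poly-A controls the counts were 3431 higher and 116 lower.

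Higher and lower calls were spread differently over the range of signals. Of the 998 loci over the floor in Dex+Cyc only, 775 (77.7%) were higher, and these passed the filter through the group in which they were high, so this share had to be large. Of the 12953 loci over the floor in both groups, 1071 (8.27%) were higher and 1116 (8.62%) lower, and of the 555 over the floor in Dex only, 200 (36.0%) were lower. By Dex signal, 1085 higher loci lay in the dimmest of 5 equal groups (signals up to 200) and 72 in the brightest (signals from 1268). The 775 loci over the floor in Dex+Cyc only had to be in the dimmest group, and of the other 1071 higher loci 310 were in it. Of the lower loci 133 lay in the dimmest group and 438 in the brightest. There were 194 loci under 100 in Dex and over 1000 in Dex+Cyc, and no locus over 1000 in Dex fell under 100. Of the 100 brightest loci in Dex+Cyc, 66 were called higher, and 32 were also among the 100 brightest in Dex. The higher loci held 3.90% to 4.22% of the summed signal of the tested loci in the Dex arrays and 26.3% to 29.3% in the Dex+Cyc arrays, while the lower loci held 12% and 4.77% to 5.44%. Every array was scaled to 1 trimmed mean, and the part of this shift in the lower calls was not tested.

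The transcription factors of early stress and wound responses included genes with large increases. Of 26 factors listed for this class, 10 were identified on the array and 10 measured; 8 rose and none fell, with a median log2 fold change of 3.91. Genes that reached the floor in Dex+Cyc only had to be higher there, and those that reached it in Dex only lower. Where a list's calls included such genes, its counts are also given over the genes above the floor in both groups. Of all loci above it in both groups, 8.27% rose and 8.62% fell. In this list 4 of 6 rose. *STZ* (*ZAT10*), a zinc finger repressor of stress responses, had signals of 210.0, 161 and 155 in the 3 Dex arrays and 16498, 19897 and 15947 in the 3 Dex+Cyc arrays. The arrays of the 2 groups did not overlap, as was so for 71.7% of all tested loci, and *STZ* moved from a dim signal to 1 of the brightest on the array, 99.9-fold higher (log2 fold change 6.64 ± 0.21 (SE), limma adjusted p = 1.1e-09). *WRKY53*, a regulator of leaf senescence and defence, read 74.1, 46.0 and 74.6 in Dex and 8697, 10835 and 9706 in Dex+Cyc. Since its Dex signals were under the floor, its increase is given against the floor of 100, as at least 97.1-fold (adjusted p = 1.4e-09). *ZAT6*, a related zinc finger factor, rose by 3.89 ± 0.19 (SE) on the log2 scale from a mean of 441 to 6623.

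WRKY and ERF factors were also counted as families, in lists that overlap the one above. *WRKY6*, *WRKY11*, *WRKY22* and *WRKY53* are in both the stress list and the WRKY list. *ERF1*, *ERF6* and *DREB1A* are in both the stress list and the ERF and DREB list. Of 11 measured WRKY genes, 7 rose and none fell (median 2.42); of the 8 above the floor in both groups 4 rose. *WRKY6* rose to at least 11.2-fold above the floor, *WRKY15* by 2.79 ± 0.27 (SE), *WRKY22* by 2.51 ± 0.17 (SE) and *WRKY11* by 2.42 ± 0.16 (SE), the last 3 from signals that were already over the floor in Dex. Of 11 ERF and DREB genes, which bind ethylene and dehydration response elements, 6 rose and none fell (median 1.19), 3 of 7 among those above the floor in both groups. *ERF-1* read 294, 210.1 and 165 in Dex and 9385, 7873 and 6992 in Dex+Cyc. *ERF71*, known from the response to low oxygen, read 219, 76.1 and 95.9 and 5604, 4884 and 4145. Both were high in every Dex+Cyc array, with log2 fold changes of 5.21 ± 0.27 (SE) and 5.37 ± 0.30 (SE) and adjusted p values of 2.4e-08 and 4.6e-08. *ERF6*, *ERF1* and *ESE1* were under the floor in Dex and had mean signals of 1812, 777 and 252 in Dex+Cyc.

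Calcium sensor genes of the touch response rose. All 5 measured touch and calcium genes rose (median 4.73), as did 7 of 8 calmodulin-like genes (median 4.4), which encode calcium sensors and share 4 members with the first list. Only 2 of the first list and 3 of the second were above the floor in both groups, and these rose. Of 11 measured genes for calcium channels, pumps and calcium-dependent kinases, a list added after values were seen, 3 rose and 1 fell (median 0.13), and of the 8 above the floor in both groups 1 rose. *CML37* read 7.95, 1.87 and 10.8 in Dex and 7766, 8076 and 6988 in Dex+Cyc, at least 76-fold above the floor (adjusted p = 1.9e-07). *CML41* and *CML23* likewise went from under the floor to mean signals of 5776 and 3284, at least 57-fold and 32.1-fold. *TCH2* and *CML38* were measured in both groups. *TCH2* read 385, 579 and 501 in Dex and 4038, 4090.3 and 3829.7 in Dex+Cyc, and *CML38* 154, 270.2 and 398 and 7187, 6190.3 and 6965. Their increases of 3.05 ± 0.16 (SE) and 4.73 ± 0.61 (SE) were several times the spread between arrays, and the ranges of *CML38*, whose Dex signals varied more, did not touch either.

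Several ubiquitin ligases of the defence response rose. Of 8 plant U-box (PUB) genes, a list added after values were seen, 6 rose and none fell (median 2.43). However, 5 of the 8 reached the floor in Dex+Cyc only, and of the other 3 only *PUB26* rose. *PUB23* and *PUB24*, which limit immune signalling, reached at least 12.9-fold and 13.6-fold above the floor, and *PUB26* rose by 3.00 ± 0.22 (SE) from 198, 239.7 and 177 to 1368, 1909 and 1634. The other 3 that rose are weaker calls, since each lost it when 1 or another array was left out: *PUB22*, *PUB25* and *PUB19*, with adjusted p of 0.0040, 0.0059 and 0.0089 in the fit and of up to 0.019, 0.027 and 0.030 without 1 array. *CNI1* (*ATL31*), a RING ligase of the carbon and nitrogen response, read 212, 114 and 149.9 in Dex and 9663, 10164 and 9900.3 in Dex+Cyc, 64.5-fold higher. Of 33 loci identified as F-box or RING ligases 21 were measured. Among these, 5 rose and 1 fell, with a median of 0.03 against -0.24 for all loci. Of the 18 above the floor in both groups, 3 rose and 1 fell.

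**Figure D2:**
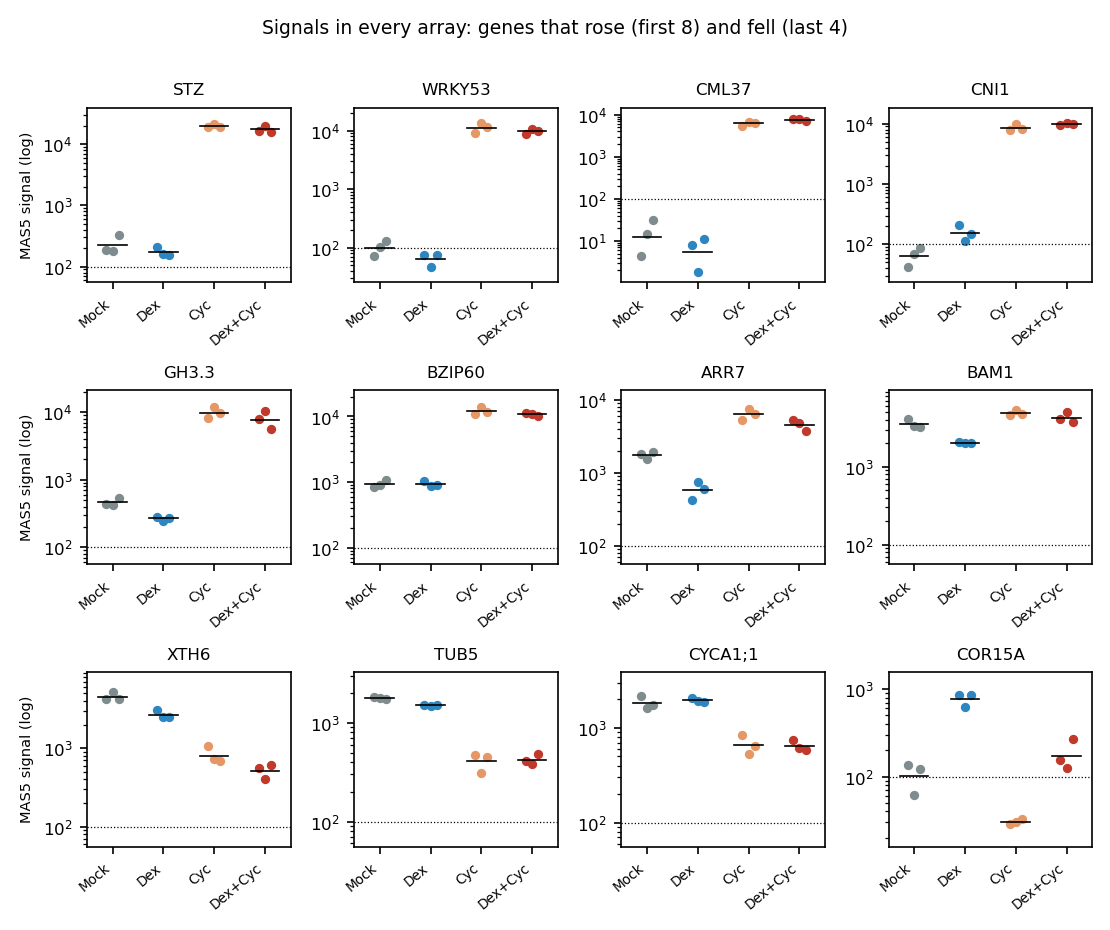
MAS5 signal (log scale) of 12 genes in each of the 12 arrays, by group; each point is 1 array, the bar is the geometric mean of 3 arrays and the dotted line the floor of 100. The first 8 genes were called higher and the last 4 lower in Dex+Cyc than in Dex; the 3 Dex+Cyc arrays of every gene lie apart from the 3 Dex arrays, and the Cyc arrays lie on the same side of the Mock arrays.

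Most measured repressor genes of auxin signalling rose. Aux/IAA proteins, most of them short-lived, are repressors that act on auxin response factors (ARFs), and many of their genes are themselves induced by auxin. Of 29 listed genes, 14 were identified and 11 measured; 8 rose and none fell, with a median of 1.54, and of the 7 above the floor in both groups 4 rose. *SHY2* (*IAA3*) read 66.7, 63.4 and 69.0 in Dex and 1155, 1030.3 and 1174 in Dex+Cyc, at least 11.2-fold above the floor (adjusted p = 2.2e-09). *IAA30* read 185, 127 and 106 and 1784, 2124 and 1489, and rose by 3.72 ± 0.22 (SE). The groups of both genes lay apart. *IAA1* and *IAA29* were dim in Dex and reached at least 6.44-fold and 6.16-fold above the floor, and *IAA18* and *AXR3* (*IAA17*), which were well measured in both groups, rose by 1.54 ± 0.15 (SE) and 1.41 ± 0.14 (SE).

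The *GH3* genes encode enzymes that join auxin to amino acids. *GH3.1* went from 1.67, 5.28 and 2.53 in Dex to 6008, 6035 and 4407 in Dex+Cyc, at least 54.3-fold above the floor (adjusted p = 1.1e-09). *GH3.3* read 285, 242 and 275 and 7973, 10231 and 5660.2, 29-fold higher (log2 fold change 4.86 ± 0.21 (SE), adjusted p = 5.3e-09). *DFL1* and *WES1*, of the same family, differed by 0.77 ± 0.20 (SE) and 0.61 ± 0.15 (SE) and did not reach 2-fold. In the list of *GH3*, auxin synthesis and auxin transport genes, 3 of 7 rose and none fell. Of the 6 above the floor in both groups, 2 rose. *TAR2*, an enzyme of auxin synthesis, differed by -0.57 ± 0.16 (SE). Of 5 measured *SAUR* genes, early auxin genes of cell expansion, 3 rose, 1 of the 2 above the floor in both groups. Of 15 listed ARF genes, which encode the targets of the Aux/IAA proteins, 2 were identified, *ARF4* and *NPH4* (*ARF7*). They differed by -0.73 ± 0.11 (SE) and -0.29 ± 0.13 (SE) and were not called. With the poly-A scaling the value of *NPH4* was 0.35.

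Cytokinin genes were fewer. The type-A response regulators are induced by cytokinin and dampen its signal, and WUS is known to repress several of them. *ARR7* read 424, 761 and 595 in Dex and 5224, 4826 and 3762 in Dex+Cyc, 7.9-fold higher (log2 fold change 2.98 ± 0.21 (SE), adjusted p = 3.8e-07). Its mean was 1761 in Mock and 6449.7 in Cyc, so that both groups with the inhibitor stood above both groups without it. *ARR15* read 40.3, 55.5 and 24.3 and 146, 262 and 116, at least 1.64-fold above the floor (adjusted p = 6.9e-04). *ARR4*, the third measured member, read 1367, 1577 and 1979.8 and 1605, 1514 and 2090.2, with overlapping groups. Of the 2 members above the floor in both groups, only *ARR7* rose. Of 2 measured *JAZ* genes, repressors of the jasmonate response, *JAZ6* rose by 1.78 ± 0.17 (SE) from a mean of 561 to 1960.5, and *JAZ12* differed by -0.43 ± 0.09 (SE).

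Most meristem regulators were not called, as was so for most loci. Of 11 measured meristem, boundary and floral regulators, 2 rose and none fell, where 12.7% of all loci rose and 9.07% fell. Of the 10 above the floor in both groups, 1 rose and none fell. The median of the 11, -0.61, lay below that of all loci (0.04 against 0.41 with the poly-A scaling). *HAM4*, a GRAS factor of the family that works with WUS, read 15.7, 15 and 17.1 in Dex and 132, 117 and 100.3 in Dex+Cyc. It was under the floor in Dex and only just over it in Dex+Cyc, at least 1.16-fold above the floor (adjusted p = 1.3e-08). *BAM1*, a receptor kinase related to CLV1, read 2066, 2008 and 2006 and 4126, 5001 and 3777 and rose by 1.08 ± 0.13 (SE). Without Dex+Cyc replicate 2 its log2 fold change was 0.96, under 2-fold. *AGL24*, a MADS factor of the inflorescence meristem, read 754, 919 and 707 and 441, 358 and 391, a difference of -1.0 ± 0.14 (SE) that fell just short of 2-fold. Of 7 organ polarity genes only *KAN3*, of the KANADI family of abaxial factors, was called, with signals of 87.0, 48.8 and 61.0 and 223, 220.4 and 279. It was under the floor in every Dex array and so had to be higher in Dex+Cyc. Of the 5 polarity genes above the floor in both groups, none was called.

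The genes that the study names as WUS-responsive were chosen on these arrays, and their Dex signals are part of that choice. Of 23 such genes, 19 were measured; 4 rose with the inhibitor, 4 fell and 11 were not called. Among all loci 12.7% rose and 9.07% fell. Of the 16 such genes above the floor in both groups, 2 rose and 3 fell. Scaled to the poly-A controls, 7 of the 19 were higher and 0 lower, and with the hybridization control scaling 4 and 1, so that the 4 decreases rest on the scaling. Besides *ARR7* and *ARR15*, *DOF2.4*, a zinc finger factor, and *ASA1*, an enzyme of tryptophan synthesis, were higher in Dex+Cyc. *ASA1* read 602, 578 and 642 in Dex and 1833, 1739 and 1529 in Dex+Cyc (log2 fold change 1.48 ± 0.11 (SE)), and *DOF2.4* 119, 70.2 and 108 and 559.8, 511 and 328, at least 4.55-fold above the floor. All 4 of these had lower means in Dex than in Mock. *bHLH093*, a transcription factor, fell from 924, 1058 and 967 to 317, 442 and 329 (log2 fold change -1.45 ± 0.15 (SE), adjusted p = 1.1e-05). *EMS1*, a receptor kinase of anther development, fell from 1387, 1609.5 and 1676 to 647, 625 and 919, and *MYB0* (*GL1*), a trichome factor, from 235, 209 and 319 to 99.5, 105 and 115. *GRF6*, a growth-regulating factor, was dim in both groups (133, 158 and 97.4 and 67.7, 89.3 and 33.6), and its call (adjusted p = 0.0069) was lost when 1 of several arrays was left out, with an adjusted p of 0.030 without Dex replicate 2 and of 0.015 without Dex+Cyc replicate 3.

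*CLV3* read 738, 1043 and 954 in Dex and 572, 443 and 623 in Dex+Cyc, against 53.1, 126 and 78.4 in Mock and 51.1, 134 and 119 in Cyc. The Dex+Cyc signals of *CLV3* were thus below all 3 Dex signals and above all arrays without Dex, and the difference between Dex+Cyc and Dex, -0.74 ± 0.37 (SE), did not pass (adjusted p = 0.098). *KNAT1*, a homeobox gene that keeps meristem cells undifferentiated, and *CUC1*, a boundary factor, differed by -0.77 ± 0.20 (SE) and -0.75 ± 0.14 (SE), under 2-fold. *KAN2* and *YAB3*, which promote abaxial identity, differed by 0.67 ± 0.13 (SE) and -0.43 ± 0.19 (SE), *NAC083* by 0.51 ± 0.18 (SE) and AT4G24060 by 0.62 ± 0.18 (SE). *NAM*, here the NAC factor at AT1G52880, and *BLH5*, a homeobox gene, had values of -0.05 and -0.07 with overlapping groups.

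Genes of cell growth were among the loci that fell. The genes of tubulins, the subunits of microtubules, form a list added after values were seen. All 7 measured tubulin genes had values below 0, 3 of them past the threshold. Their median was -1.0 (-0.35 with the poly-A scaling, where all loci had 0.41 and 1 of the 7 was called). *TUB5* read 1501, 1496 and 1514 in Dex and 415, 381 and 481 in Dex+Cyc, 3.55-fold lower (log2 fold change -1.83 ± 0.15 (SE), adjusted p = 1.5e-06). *TUB6* read 1378, 1355 and 1368 and 497, 559.6 and 568, and *TUA6*, at -1.02 ± 0.15 (SE), was near the threshold and lost its call without Dex replicate 2 (-0.89), Dex+Cyc replicate 1 (-0.96) or Dex+Cyc replicate 3 (-0.95). *SP1L4*, of a family that acts on cortical microtubules, fell from 412, 515 and 499 to 107, 108 and 156.

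Of 22 genes listed for mitosis, 3 were identified and measured. All 3 fell (median -1.13, -0.48 with the poly-A scaling). None was called with the poly-A scaling and 1 with the hybridization control scaling. In a list of cyclins, added after values were seen, 2 of 5 measured genes rose and 2 fell (median 0.80). Of the 2 above the floor in both groups, 0 rose and 1 fell. The other, *CYCA1;2*, had mean signals of 246 in Dex and 430 in Dex+Cyc and was not called. *CYCA1;1*, an A-type cyclin, read 2043, 1902 and 1894 in Dex and 744, 612 and 586 in Dex+Cyc, 3.02-fold lower (log2 fold change -1.60 ± 0.17 (SE), adjusted p = 1.1e-05). The Aurora kinase genes *AUR1* and *AUR2* had log2 fold changes of -1.13 ± 0.14 (SE) and -1.07 ± 0.17 (SE), and *AUR2* was at -0.89, under 2-fold, without Dex replicate 2. *ASF1B*, a histone chaperone of dividing cells, fell from 901, 1257 and 991 to 298, 275 and 279.9. None of the 7 core histone genes was called, and their median was 0.20. *HTR12*, the centromeric histone H3, differed by -0.82 ± 0.10 (SE) and *HTA10*, an H2A gene, by 0.42 ± 0.12 (SE). None of the 3 measured inhibitors of cyclin-dependent kinases was called.

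Genes of the cell wall moved both ways. Of 14 measured XTH and expansin genes, whose products remodel and loosen the wall, 6 rose and 4 fell (median 0.18); of the 10 above the floor in both groups 2 rose and 4 fell. *XTH18* read 8.07, 1.73 and 3.38 in Dex and 2792, 3669 and 2939 in Dex+Cyc, at least 31.1-fold above the floor, and its neighbour in the genome by locus number, *XTH19*, at least 11.7-fold. The 2 are close relatives, and probes may read both. *XTH6* went the other way, from 3092, 2509 and 2467 to 566, 401 and 614, 5.16-fold lower (log2 fold change -2.37 ± 0.20 (SE), adjusted p = 1.6e-06), and *XTH15* fell from 1016, 1331 and 1058 to 241, 279 and 356. Scaled to the poly-A controls, *XTH6* was at -1.72 and still called, and the list held 7 higher and 2 lower genes. Of 4 water channel genes, a list added after values were seen, 3 fell. Among them were the tonoplast channels *DELTA-TIP* (-1.65 ± 0.22 (SE)) and *GAMMA-TIP* (-1.40 ± 0.16 (SE)). With the poly-A scaling 1 of the 4 was called lower and 1 higher.

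Several genes of the cold and drought response fell. In this list, added after values were seen, of 12 measured genes 5 fell and none rose (median -0.81, -0.17 with the poly-A scaling). Of the 11 above the floor in both groups, 4 fell. *COR15A*, which encodes a plastid protein that protects membranes in the cold, read 848, 627 and 863 in Dex and 157, 126 and 267 in Dex+Cyc, 4.44-fold lower (log2 fold change -2.15 ± 0.31 (SE), adjusted p = 1.1e-04). Its relative *COR15B* fell from 1222, 1039 and 1781 to 272, 321 and 413. Both were brighter in Dex than in Mock, where the means were 106 and 168. *COR47*, a dehydrin, had a log2 fold change of -1.64 ± 0.24 (SE), *LEA18* fell from 522, 339 and 492 to 52.7, 74.3 and 115, at least 4.43-fold against the floor, and *ABF3*, a bZIP factor of the abscisic acid response, fell from 1399, 947 and 1291 to 348, 300 and 317. *GolS2*, which makes galactinol under the same stresses, went up from under the floor to 813, 918 and 702.

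**Figure D3:**
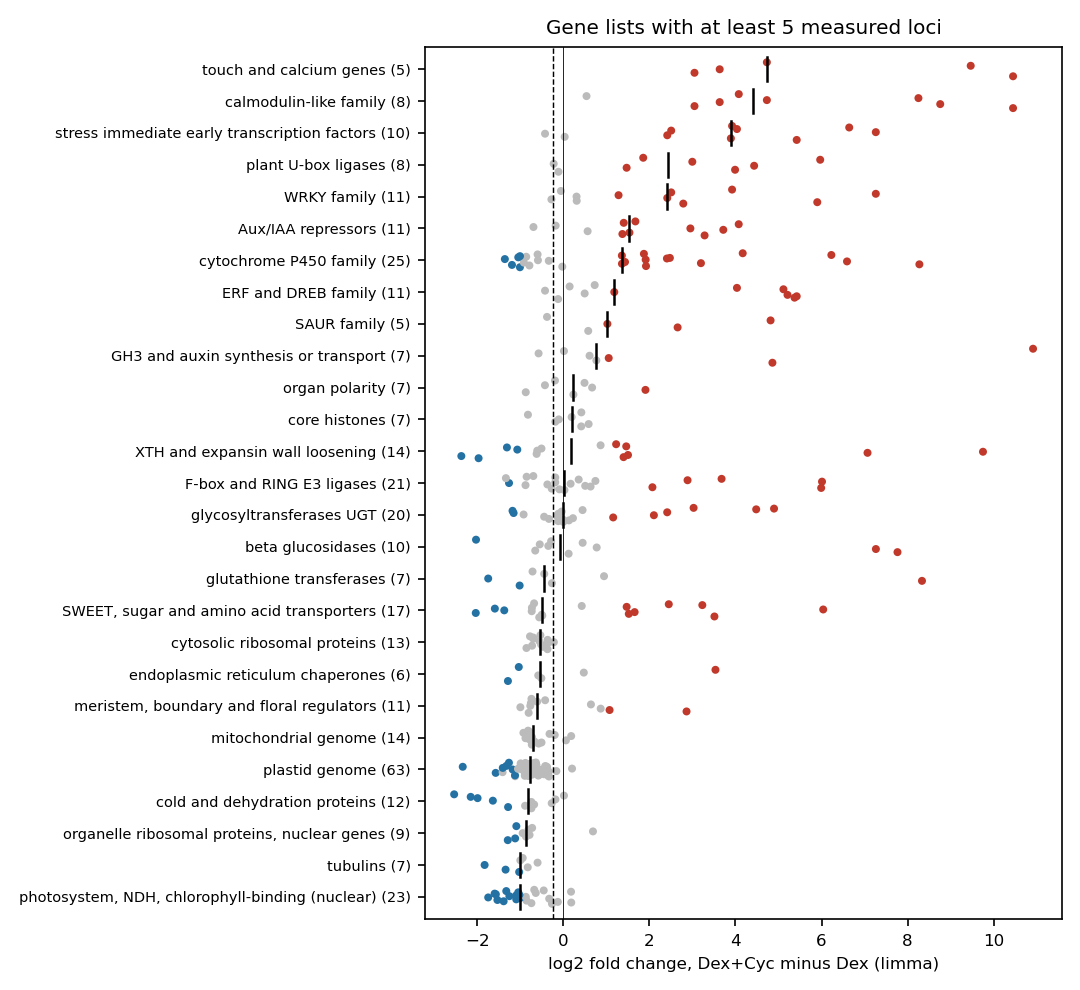
Log2 fold change, Dex+Cyc minus Dex, of each measured locus (points) in the gene lists with at least 5 measured loci (number in brackets); red points were called higher, blue lower and grey not called, black bars are list medians, and the dashed line is the median of all 14506 loci, -0.24. The touch and calcium list has a median of 4.73, with 3 of its 5 genes above the floor in Dex+Cyc only, and the photosystem and tubulin lists have medians near -1.0; with the poly-A scaling every point shifts right by 0.65, and the medians of cytosolic ribosomal proteins, endoplasmic reticulum chaperones, meristem regulators, glycosyltransferases, glutathione transferases, beta glucosidases and sugar and amino acid transporters change sign. Points of loci that were under the floor in 1 group have no firm size. The list of calcium channels, pumps and kinases and the list of cyclins are not drawn.

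Some nuclear genes of photosynthesis fell. A list added after values were seen held nuclear genes linked to the photosystems, the NDH complex or chlorophyll binding, among them *PIFI* and several *CRR* genes. Of its 23 measured genes, 12 fell and none rose (median -1.0, -0.35 with the poly-A scaling, where 1 was called). Of the 19 above the floor in both groups 8 fell, and the calls of *Lhca5*, *PIFI* and *PSAE-1* below were lost with that scaling. *LIL3:2*, a chlorophyll-binding protein of the thylakoid, read 2358, 2540.2 and 2884 in Dex and 813, 648 and 874 in Dex+Cyc. *Lhca5*, of the photosystem I antenna, read 1228, 1344 and 1338 and 451, 525 and 524. The groups of both lay apart, with log2 fold changes of -1.74 ± 0.20 (SE) and -1.38 ± 0.10 (SE) and adjusted p values of 1.9e-05 and 5.7e-07. *PIFI*, a factor of the NDH pathway, fell by 1.59 ± 0.19 (SE), and *PSAE-1* of photosystem I fell by 1.1 ± 0.17 (SE).

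On the plastid genome, 7 of 63 measured genes fell and none rose, and 56 did not pass; of the 54 above the floor in both groups 4 fell, shares close to the 9.07% and 8.62% of all loci. With the poly-A scaling 1 was called, and neither *rbcL* nor *psbZ* was. Their median was -0.76 (-0.12 with the poly-A scaling), and all but 1 had a value below 0. *rbcL*, the large subunit of Rubisco, read 386, 389.7 and 285 in Dex and 158, 125 and 139 in Dex+Cyc, and *psbZ* of photosystem II 2816, 3224 and 2909.6 and 1104, 934 and 1380.0, with log2 fold changes of -1.32 ± 0.18 (SE) and -1.41 ± 0.18 (SE). *ndhJ* was dim (100, 219 and 139 and 61.0, 9.50 and 40.9), and its call was lost without Dex replicate 2 or 3 (adjusted p = 0.016 and 0.010). Of 14 genes of the mitochondrial genome none was called, and their median was -0.70. Of 9 nuclear genes for ribosomal proteins of organelles 3 fell, with a median of -0.86, while with the poly-A scaling 0 were called lower and 1 higher.

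Genes for the cytosolic machinery that cycloheximide blocks showed smaller changes. Of the genes for cytosolic ribosomal proteins, 18 were identified on the array and 13 measured, and none of the 13 was called. Their values ran from -0.85 to -0.22 with a median of -0.53, which became 0.12 with the poly-A scaling, so that their direction follows the scaling. AT4G14320, for a 60S protein of the L36a class, read 13034, 13852 and 12779.5 in Dex and 6915, 8068 and 6990.4 in Dex+Cyc, a difference of -0.85 ± 0.11 (SE). Of 21 listed translation factors 2 were identified, *EIF4A-2* and *PAB4*. They differed by -0.14 ± 0.14 (SE) and -0.20 ± 0.10 (SE), values that were 0.51 and 0.45 with the poly-A scaling. Of 18 listed genes of the nucleolus 4 were identified, and none was called.

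Protein folding genes of the endoplasmic reticulum split. *BZIP60*, the transcription factor of the unfolded protein response, read 1030.2, 874 and 905 in Dex and 11346, 10944 and 10228 in Dex+Cyc, 11.6-fold higher (log2 fold change 3.54 ± 0.13 (SE), adjusted p = 2.2e-09). *UNE5*, a protein disulfide isomerase, read 5343, 5979.8 and 5569 and 2264, 2135 and 2543, 2.44-fold lower (log2 fold change -1.28 ± 0.11 (SE), adjusted p = 2.0e-06). *CRT1b*, a calreticulin, fell by 1.03 ± 0.12 (SE), and was at -0.90 without Dex+Cyc replicate 1. With the poly-A scaling *UNE5* and *CRT1b* were at -0.64 and -0.38 and were not called. *BZIP28*, the other factor of this response, differed by 0.48 ± 0.12 (SE). Of 17 listed cytosolic heat shock genes 2 were identified. Both rose, the factor *HSF4* by 1.2 ± 0.13 (SE) and the HSP70 gene AT3G09440 by 1.33 ± 0.29 (SE). *UPF3* and AT2G39260, of nonsense-mediated mRNA decay, differed by 0.50 ± 0.15 (SE) and -0.65 ± 0.12 (SE).

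Several enzymes of defence metabolism rose from under the floor. In lists added after values were seen, of 25 cytochrome P450 genes 13 rose and 5 fell, and of 20 glycosyltransferase genes 6 rose and 2 fell. Above the floor in both groups, 5 of 13 P450 genes rose and 4 fell, and 2 of 16 glycosyltransferase genes rose and 2 fell. Among all loci above it in both groups 8.27% rose and 8.62% fell, and the glycosyltransferase counts lay near these shares. *CYP81F2*, which modifies indole glucosinolates, read 10.8, 1.76 and 4.01 in Dex and 1786, 1307 and 966 in Dex+Cyc. *IGMT1*, which acts in the same pathway, read 1.39, 2.54 and 0.83 and 346, 267 and 198, and *MYB122*, a regulator of that pathway, 2.53, 3.48 and 2.35 and 164, 172 and 170.3. All 3 were under the floor in every Dex array and over it in every Dex+Cyc array, by at least 13.1-fold, 2.63-fold and 1.69-fold. Of 7 glutathione transferase genes 1 rose and 2 fell, and of 10 beta glucosidase genes 2 rose and 1 fell. Both lists were also added after values were seen. Above the floor in both groups, 0 of 4 and 0 of 7 rose, and 1 and 0 fell. *GSTU12*, a glutathione transferase, reached 4790.2, 4089 and 2511 from 11.2, 6.27 and 20.9, while *GSTU20* fell from 222, 306 and 162 to 73.7, 45.9 and 86.4. The beta glucosidase genes *BGLU31* and *BGLU27* rose to at least 12.9-fold and 10.7-fold above the floor, and *BGLU45* fell from 527, 235 and 280.2 to 71.5, 69.2 and 103.

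Lipid and wall phenol genes were among the same set. *DLAH*, a lipase, read 21.1, 33.3 and 42.3 in Dex and 15195, 15699.9 and 13895 in Dex+Cyc, at least 149-fold above the floor. *CCR2*, a cinnamoyl-CoA reductase of defence lignin at AT1G80820, read 39.3, 2.4 and 5.48 and 3099.6, 2821 and 2737. *NDB4*, a mitochondrial NADH dehydrogenase, reached at least 6.98-fold above the floor and *B120*, a receptor kinase, at least 47-fold. For these genes the size of the fitted change depends on signals near background in Dex, and the bound is the firmer value.

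Transporters moved both ways. Of 17 measured sugar and amino acid transporter genes, a list added after values were seen, 7 rose and 3 fell. Among the 11 above the floor in both groups 4 rose and 2 fell. *SUC1*, a sucrose-proton symporter, read 567, 554 and 537 in Dex and 6838, 5205 and 3913 in Dex+Cyc, 9.38-fold higher. *AAP5*, an amino acid permease, read 186, 132 and 149.6 and 1753, 1868 and 1667, 11.4-fold higher. *SWEET10*, a sucrose exporter, fell from 475, 679 and 554 to 221, 98.6 and 119.5, 4.09-fold lower. All Dex+Cyc arrays of *SUC1* and *AAP5* were above, and all those of *SWEET10* below, the Dex arrays.

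The question whether these changes are particular to tissue with active WUS-GR was asked with the Cyc and Mock arrays, which share no array with the comparison above. Between Cyc and Mock, both without Dex, 3445 of the same loci (23.7%) were called, 1795 higher (12.4%) and 1650 lower (11.4%). Of the 3162 loci changed in Dex+Cyc versus Dex, 2564 were also called in Cyc versus Mock and in the same direction (1595 higher, 969 lower), which is 81.1% of the first set of calls and 74.4% of the second, and none was called in the opposite direction. The sign of the Cyc versus Mock value was the same for 3153 of the 3162 loci. Any difference between the experiments with and without Cyc would enter both comparisons, so their overlap cannot set it apart from an effect of Cyc. The Cyc and Mock arrays did not overlap at 67.9% of all tested loci. Over the 1071 higher and 1116 lower loci above the floor in both Dex and Dex+Cyc, the median Cyc versus Mock log2 fold change was 1.87 and -1.2, and the median difference between both effects, locus by locus, was 0.06 and -0.03. The first principal component of the 14506 loci, with 84.0% of the variance, set all 6 arrays with Cyc apart from all 6 without it, and the second, with 5.77%, set the 6 arrays with Dex apart from the 6 without.

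**Figure D4:**
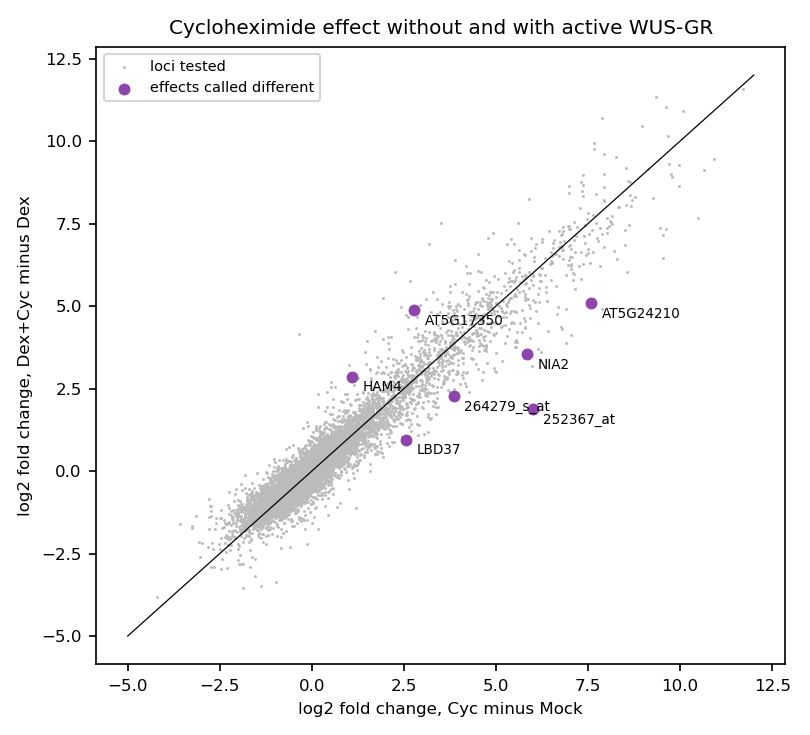
Log2 fold change of Cyc minus Mock (x axis) and of Dex+Cyc minus Dex (y axis) for the 14506 tested loci (grey), with the 7 loci whose effects were called different in purple; the line marks equal effects. Most loci lie along the line over the whole range; 2 labelled loci lie above it and 5 below.

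The difference between the 2 effects, tested for each locus as the interaction of Dex and Cyc, was called at 7 loci (0.0483% of those tested), 2 with a larger (0.0138%) and 5 with a smaller (0.0345%) value under Dex. At an adjusted p under 0.05 alone there were 29 loci, and at an unadjusted p under 0.05 there were 1522. Of the 598 loci called in Dex+Cyc versus Dex and not in Cyc versus Mock, 2 had a difference with an adjusted p under 0.05, and of the 881 called only in Cyc versus Mock, 3 had. A locus called in 1 comparison and not in the other was thus rarely shown to differ between them. The median SE of the difference was 0.212 on the log2 scale, against 0.150 for Dex+Cyc minus Dex, which limits the differences that could be seen. The count also moved with single arrays: it was 1 without Cyc replicate 1 or 3 or Dex+Cyc replicate 2 or 3, 2 without Cyc replicate 2 or Dex+Cyc replicate 1, 3 without Mock replicate 1 or Dex replicate 3, and 4 without Dex replicate 2. The unnamed probe set 252367_at was the 1 locus called whichever array was left out.

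*HAM4* and AT5G17350 were the 2 loci with a larger value under Dex, and both differences rest on signals under the floor. *HAM4* read 114, 109 and 86.7 in Mock, 15.7, 15 and 17.1 in Dex, 227, 233 and 199 in Cyc and 132, 117 and 100.3 in Dex+Cyc. The signal was lowest in the Dex arrays, and the fitted difference was 1.77 ± 0.20 (SE) (limma adjusted p = 0.0047). Set against the floor, the increase was at least 1.16-fold with Dex, so a larger effect under Dex cannot be read from signals above the floor. The mean of AT5G17350 was 18.0 in Mock and 6.91 in Dex, and it read 124, 106 and 139.9 in Cyc and 227, 201 and 179 in Dex+Cyc.

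In the 5 loci with a smaller effect under Dex, the Dex arrays stood above the Mock arrays while the 2 groups with Cyc were closer to each other. *NIA2*, the main nitrate reductase of leaves, read 46.0, 44.3 and 46.3 in Mock, 185, 144 and 117 in Dex, 2892, 2524 and 2404 in Cyc and 2158, 1482 and 1548 in Dex+Cyc. The difference between its Cyc effects was -2.29 ± 0.25 (SE) (adjusted p = 0.0047), and its Mock signals were under the floor. *LBD37*, a LOB domain factor that represses genes of nitrate use, read 194, 255 and 268, 915, 891 and 1007, 1527, 1230.2 and 1478 and 1937, 1814 and 1677 in the same order of groups, with a difference of -1.62 ± 0.20 (SE) (adjusted p = 0.0083). Its Mock signals were over the floor, and in Dex+Cyc versus Dex it changed by 0.95 ± 0.14 (SE), just under 2-fold. AT5G24210 and the probe set 252367_at had Mock means of 8.27 and 4.86, near the bottom of the scale, so the sizes of their differences, -2.50 ± 0.30 (SE) and -4.12 ± 0.26 (SE), rest on signals near background. The probe set 264279_s_at, which has no gene name here, was bright in all groups, with means of 519.7, 1246, 7462 and 5988 in Mock, Dex, Cyc and Dex+Cyc and a difference of -1.57 ± 0.16 (SE).

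**Figure D5:**
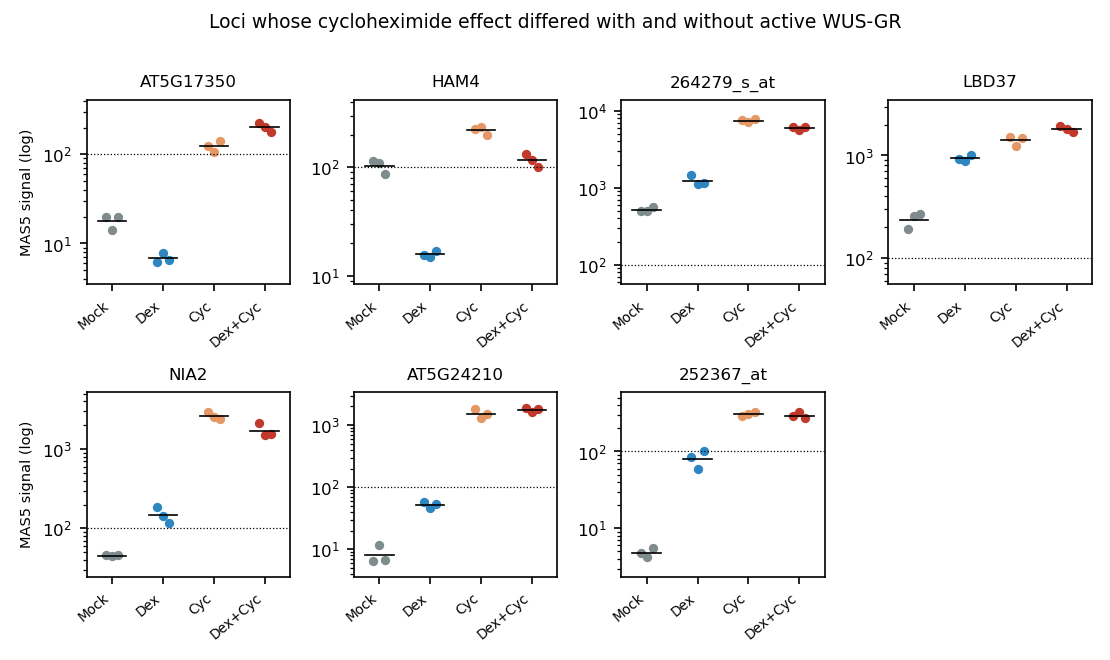
MAS5 signal (log scale) in each of the 12 arrays of the 7 loci whose Cyc effect was called different with and without Dex; points are arrays, bars geometric means of 3 arrays, and the dotted line the floor of 100. AT5G17350 and *HAM4* are lower in Dex than in Mock, and the other 5 loci are higher in Dex than in Mock, and at all 7 the bars of Cyc and Dex+Cyc lie closer together than those of Mock and Dex.

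The next genes by adjusted p of the difference did not reach 0.01. *LCR67* (*PDF1.1*), a plant defensin, read 68.1, 73.1 and 101 in Mock and 90.5, 79.0 and 87.8 in Dex, and 4088, 3779.7 and 3409 in Cyc and 1514, 1191 and 1175 in Dex+Cyc. Its Cyc arrays were all higher than its Dex+Cyc arrays (difference -1.65 ± 0.22 (SE), adjusted p = 0.020), and the means of Mock and Dex were under the floor. *TCH2*, among the touch genes above, had Mock signals of 951, 805 and 1173 and Cyc signals of 2828, 2712 and 3094, and its effect was larger under Dex by 1.47 ± 0.23 (SE) (adjusted p = 0.035). For *BCA4*, a carbonic anhydrase, *IP5PII*, an inositol phosphatase, *ZCF37*, *ERF8* and *sks4* the adjusted p of the difference lay between 0.030 and 0.034. Among these, *sks4* was larger under Dex by 1.00 ± 0.15 (SE) and *ERF8* smaller, at -1.02 ± 0.16 (SE).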

How the data were processed

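RNA from pooled SAMs was labelled as biotin cRNA and hybridized to ATH1 arrays, 12 in all, 3 in each of 4 groups. The deposited intensity values are MAS5 signals on a linear scale, which the authors scaled to a 2% trimmed mean of 500 on every array; the submitters' notes name MAS5 and the affy package without a version. The authors' own comparison used another summary of the arrays (GCRMA), and detection calls were not used here. Signals were taken as log2 with no pseudocount and no further normalization. Control probe sets were left out, 1 probe set was kept for each locus by the highest mean, and loci with a mean under 100 in both the Dex and Dex+Cyc groups were left out. Groups came from the sample titles. A model with 4 group means was fitted with limma 3.58.1 in R 4.3.3 (lmFit, eBayes), giving Dex+Cyc minus Dex, Cyc minus Mock and the difference between these, with Benjamini-Hochberg adjustment over all loci tested and a threshold of 0.01 with 2-fold. This adjusted p from limma is the one given throughout. The number of arrays limits the precision. The script was tested on simulated data.

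Of the probe sets, 14540 had a single locus from the platform annotation or the study's supplementary tables (1056 from the latter alone, which list genes of the study's own comparisons), 503 had several and 2514 had a symbol. The genes named were the 20 loci with a symbol with the largest increase and the 20 with the largest decrease among calls whose groups did not overlap, up to 6 measured members of each list with the smallest adjusted p, the measured genes the study names as WUS-responsive, up to 10 loci with a symbol with the smallest adjusted p of the difference, and up to 6 that passed the filter in 1 group; the 7 called differences were added. Of these the text gives a selection. Members and lists were chosen with earlier results of these data known. Of 37 lists, 10 were added after values had been seen. The list of calcium channels, pumps and kinases and the list of cyclins, also added then, are not among the 37. The cytosolic ribosomal protein list was narrowed after values had been seen. Alternatives covered the normalization, pseudocount, filter, probe sets, variance model, threshold, replicate block and leaving out each array. Plants without the transgene were not analysed here, and no search for promoter motifs was made.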

Additional observations from a re-analysis of the deposited data

Results flagged for a closer look

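The difference between the effects of Cyc with and without Dex passed the test (limma interaction, adjusted p under 0.01 and 2-fold) at 7 loci. The difference was -4.12 ± 0.26 (SE) for the probe set 252367_at (adjusted p = 5.2e-05), -1.57 ± 0.16 (SE) for the probe set 264279_s_at (adjusted p = 0.0047), -2.29 ± 0.25 (SE) for *NIA2* (adjusted p = 0.0047), -2.50 ± 0.30 (SE) for AT5G24210 (adjusted p = 0.0081) and -1.62 ± 0.20 (SE) for *LBD37* (adjusted p = 0.0083), all smaller under Dex. It was 1.77 ± 0.20 (SE) for *HAM4* (adjusted p = 0.0047) and 2.09 ± 0.23 (SE) for AT5G17350 (adjusted p = 0.0047), larger under Dex. In 252367_at, AT5G24210, AT5G17350, *NIA2* and *HAM4* at least 1 group had a mean signal under 100.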

How the results depend on the processing

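No locus called in Dex+Cyc versus Dex was called in the opposite direction under any alternative. The 1846 higher and 1316 lower loci moved with several choices. The scalings to control probe sets, chosen after seeing the data, gave 3431 and 116 with the poly-A controls (96.7% of calls higher, against 58.4%) and 1803 and 566 with the hybridization controls (76.1%). Median centring gave 1734 and 1792 (49.2%), a filter of 100 in both groups 1078 and 1129 (48.8%; fewer loci were tested), and a test above 2-fold 1140 and 72, 1212 in all (94.1%). For Cyc versus Mock the poly-A scaling gave 2797 higher and 349 lower loci and the test above 2-fold 1301 in all. Leaving out 1 array gave 2983 to 3349 loci in Dex+Cyc versus Dex, 1769 to 1859 higher and 1214 to 1516 lower, and 3189 to 3576 in Cyc versus Mock. The 7 differences between the Cyc effects became 4 with quantile normalization, 2 without a filter, 4 with the filter in both groups, 14 with a variance trend, 19 with array weights, 25 at an adjusted p under 0.05, 1 in the test above 2-fold, 1 with the poly-A and 13 with the hybridization scaling, and 1 to 7 with 1 array left out. The cause of these changes was not tested.

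With the replicate number as a block, 1850 loci were higher and 1310 lower, and the differences fell to 2. Of 18 same-numbered pairs, 3 had correlations of their deviations over 0.1 (all 18 ran from -0.161 to 0.265). For Cyc with Dex+Cyc the values were 0.258, 0.198 and 0.0407 in replicates 1, 2 and 3. Pairs with different numbers were not correlated, so whether the numbers pair the samples cannot be told. Of 100 called genes named in the text, 91 kept their call whichever array was left out, while 18 lost it with the poly-A scaling, 8 with the hybridization scaling and 37 in the test above 2-fold. Some uncalled genes changed sign. With the poly-A scaling *NPH4* was at 0.35, *TAR2* 0.076, *JAZ12* 0.22, AT2G39260 0.00089, *YAB3* 0.22, *EIF4A-2* 0.51, *PAB4* 0.45, *NAM* 0.59 and *BLH5* 0.58. With the hybridization scaling *NAM* was at 0.046 and *BLH5* at 0.031, with array weights *BLH5* at 0.030, and with median centring *ARR4* at -0.0024. With 1 array left out *ARR4* ranged from -0.057 to 0.23, *NAM* from -0.18 to 0.16 and *BLH5* from -0.25 to 0.10. Signals under about 100 were least precise, which limits the sizes given for loci dim in Dex.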
